A study of Mus musculus with 6 samples.

Results

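The genes described here encode the enzymes and carriers of the citric acid cycle and of the routes by which pyruvate, glutamine carbon and cytosolic citrate enter or leave it. They were chosen by name, with earlier results of these data known. In the gene name column of a count table of 52459 genes, 31 symbols were looked up and all 31 were found. Succinate dehydrogenase was left out of the list by that rule. Of the 31 genes, 29 passed the filter on low counts and were tested. The exceptions were the malic enzyme genes Me1 and Me3.

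The citric acid cycle runs in the mitochondrial matrix. It oxidises acetyl-CoA, made from pyruvate by the pyruvate dehydrogenase complex, and hands electrons to the respiratory chain as NADH and through succinate dehydrogenase. Carbon is drawn off for synthesis and put back by pyruvate carboxylase and by glutamine, which enters as oxoglutarate. In the erythroid lineage the cycle also supplies succinyl-CoA, which ALAS2 joins with glycine in the first step of heme synthesis, and the aconitase step and succinate dehydrogenase depend on iron-sulfur clusters.

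RNA was sequenced from megakaryocytic-erythroid progenitors, marrow cells upstream of both platelets and red cells, in 3 wild-type (WT) and 3 Tmprss6-/- (KO) libraries. Tmprss6 is a liver protease that restrains hepcidin, so that mice without it are iron deficient, the condition named in the study's title. Each library pooled cells of 3 mice, sorted as positive for cKit and CD150 and negative for lineage markers, Sca, FcgRI/II, CD105 and CD41. The labels name no treatment in either group, and they leave out strain, age and sex. The labels call each pool a biological replicate but do not say what a replicate number stands for. Comparisons asked how the loss of Tmprss6 changed the transcripts of these progenitors.

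Total counts ran from 13402209 to 22986837 per library. Tmprss6 itself had 0 to 5 counts in every library of both groups, so it checked no label. All 12 marker genes of the sorted cell type, among them Kit, Gata1 and Klf1, were detected in every library. Their summed level was 8700 to 10118 CPM (counts scaled to library size) in 5 libraries and 6891 CPM in KO replicate 2. Car1 gave the largest part of each sum, at 3971 to 6451 CPM. Kit differed more, at 392, 822 and 1640 CPM in WT replicates 1 to 3 and at 316, 578 and 1246 CPM in those of KO. KO replicate 2 stood apart. All 12 macrophage genes, all 12 genes of eosinophils, basophils and mast cells and all 12 neutrophil genes were highest there, with sums of 2658, 8797 and 3418 CPM against at most 252, 825 and 379 CPM elsewhere. So were all 11 globin and late erythroblast genes found of 12 listed (5802 CPM against 380 to 665 CPM) and 11 of 12 lymphoid and plasma cell genes. The sum of that last list was 1421 CPM in KO replicate 2, 895 CPM in KO replicate 3 and 275 to 569 CPM elsewhere. Ighm and Jchain were at 562 and 124 CPM in KO replicate 3, against 600 and 168 CPM in KO replicate 2. In the other libraries they were at 21.3 to 126 and 0.231 to 27.6 CPM. Nkg7, of the same list, was lowest in KO replicate 3 (185 CPM). In at least 1 library 2 of the macrophage genes (Marco, Vsig4) and 3 of the neutrophil genes (Lcn2, Ly6g, Mmp8) were at 0. Libraries with the same replicate number resembled each other for numbers 1 and 3 and little for number 2. Departures of log2 CPM from the group's mean correlated at 0.53 and 0.63 against 0.16. A pair below means the WT and the KO library of one number, and pair 2 has a weak basis. Replicate 3 of both groups was female by Xist (351 and 175 counts, with at most 1 count of Ddx3y), whereas the other 4 libraries had at most 1 Xist count and at least 872 Ddx3y counts.

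Wild-type progenitors expressed most of these genes at high levels. Per kilobase of transcript, 26 of the 29 tested members lay above the 75th percentile of all tested genes in WT and 16 above the 90th. Mdh2, the malate dehydrogenase of the matrix, led at 534 ± 74.7 CPM per kb (SD, n = 3). It was followed by Idh3g, the gamma subunit of the NAD-dependent isocitrate dehydrogenase, at 381 ± 45.3 CPM per kb, by Suclg1, the shared alpha subunit of succinyl-CoA ligase, at 232 ± 64.2 and by Pdhb, the E1 beta subunit of pyruvate dehydrogenase, at 230 ± 47.1. Suclg1 and Pdhb did not differ beyond their spread. At the other end stood Pcx, pyruvate carboxylase, at 3.97 ± 1.00 CPM per kb, Got1, the cytosolic aspartate aminotransferase, at 10.6 ± 1.04, and Idh1, the cytosolic NADP-dependent isocitrate dehydrogenase, at 26.2 ± 1.84. The matrix counterparts of these last enzymes were higher, with Got2 at 52.3 ± 11.3 and Idh2 at 190 ± 19.8 CPM per kb.

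**Figure D1:**
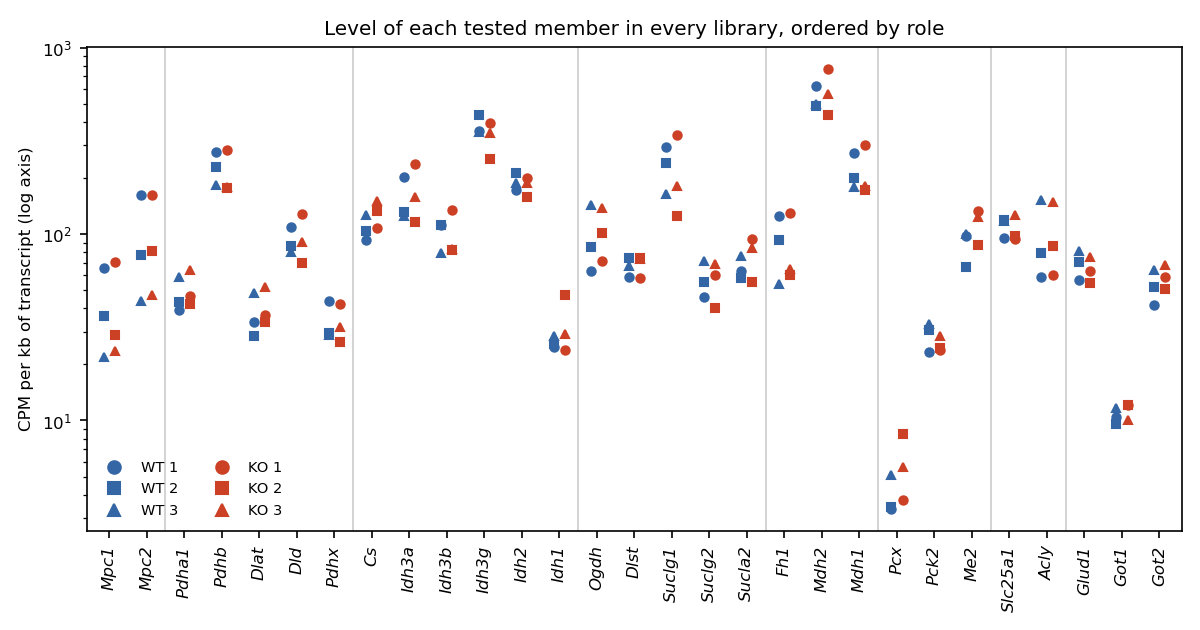
CPM per kilobase of transcript (log axis) for the 29 tested members, 1 column per gene, ordered by role with grey lines between roles; blue points are the 3 WT and red points the 3 KO libraries, and the marker shape gives the replicate number. Mdh2 and Idh3g sit at the top and Pcx and Got1 at the bottom, and in every column the red and blue points share a range.

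Of 3 malic enzymes, which turn malate into pyruvate, Me2 alone was expressed well above the floor of 3 counts. Me2, the mitochondrial NAD-dependent form, stood at 87.7 ± 18.6 CPM per kb in WT. For Me1, the cytosolic form, the counts were 0, 4 and 2 in the WT libraries and 3, 3 and 16 in the KO libraries, in the order of the replicate numbers. Me3, the mitochondrial NADP-dependent form, had 1 count in KO replicate 2 and 0 counts in the other 5 libraries. A similar choice held for phosphoenolpyruvate carboxykinase, where the mitochondrial Pck2 was at 29 ± 5.09 CPM per kb in WT, while the cytosolic Pck1, which is not among the 31 genes, had 0 counts in all 6 libraries.

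No member passed the test of genotype. The fit over all 6 libraries called 0 of 29 members (edgeR's quasi-likelihood test, adjusted over all 13453 genes tested), where 0% of all genes were called. At an unadjusted p under 0.05 there were 0 members against 1.74% of all genes, and DESeq2 likewise called 0 members, with 0 at an unadjusted p under 0.05. Of the 29 members, 17 had a higher and 12 a lower fitted level in KO (58.6% higher, against 49.3% of all genes), with a median log2 fold change of 0.035 against -0.0048 for all genes. That median was 0.15 without KO replicate 2 and -0.096 without KO replicate 1. The log2 fold changes ran from -0.20 for Idh3g to 0.59 for Pcx, with standard errors of 0.25 to 0.58. The KO and WT libraries overlapped for every tested member, whereas 4.03% of all genes had groups that did not overlap. In bulk libraries of this kind, fewer cells of a type and less RNA per cell cannot be told apart.

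**Figure D2:**
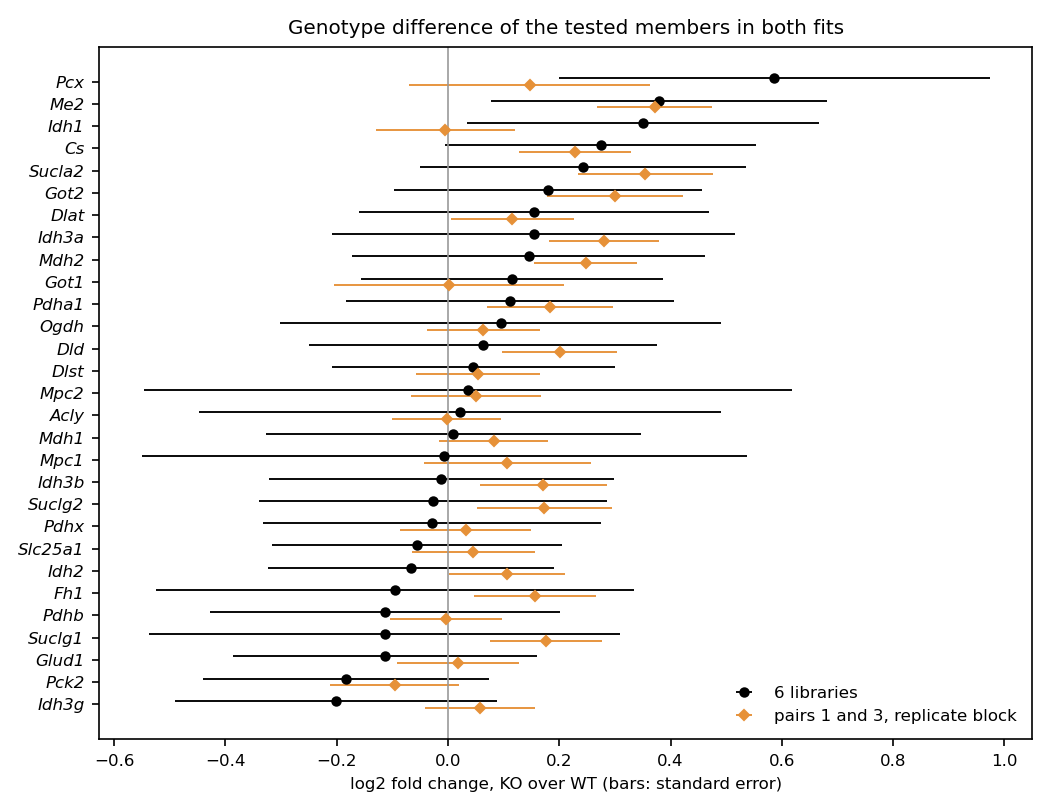
Log2 fold change of KO over WT (horizontal axis) for the 29 tested members, with black circles for the fit of all 6 libraries and orange diamonds for the fit of pairs 1 and 3 with the replicate number as a block; bars are standard errors. In the 6 libraries the members run from -0.20 (Idh3g) to 0.59 (Pcx), and in pairs 1 and 3 most lie just to the right of 0.

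The members moved differently in the 3 pairs. In pair 1, 24 of 29 members were higher in KO, with a median difference of 0.16 in log2 CPM against -0.013 for all genes. KO replicate 1 was the highest of the 6 libraries for 11 members and the lowest for 3. In pair 3, 21 of 29 were higher (median 0.11 against -0.0095). In pair 2, which holds the library with the most transcripts of other blood cells, 10 were higher and 19 lower (median -0.15 against -0.0024). KO replicate 2 was the lowest of the 6 libraries for 12 members (Pdhb, Dld, Pdhx, Idh3a, Idh3g, Idh2, Suclg1, Suclg2, Sucla2, Mdh2, Mdh1 and Glud1) and the highest for 4 (Idh1, Dlst, Pcx and Got1). The part of the other cells in these values was not tested. Higher in KO in 3 of 3 pairs were 4 members (Cs, Dlat, Pcx and Me2), 13.8% of those tested against 11.5% of all genes, and 0 members were lower in 3 of 3 pairs, against 13.3% of all genes.

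**Figure D3:**
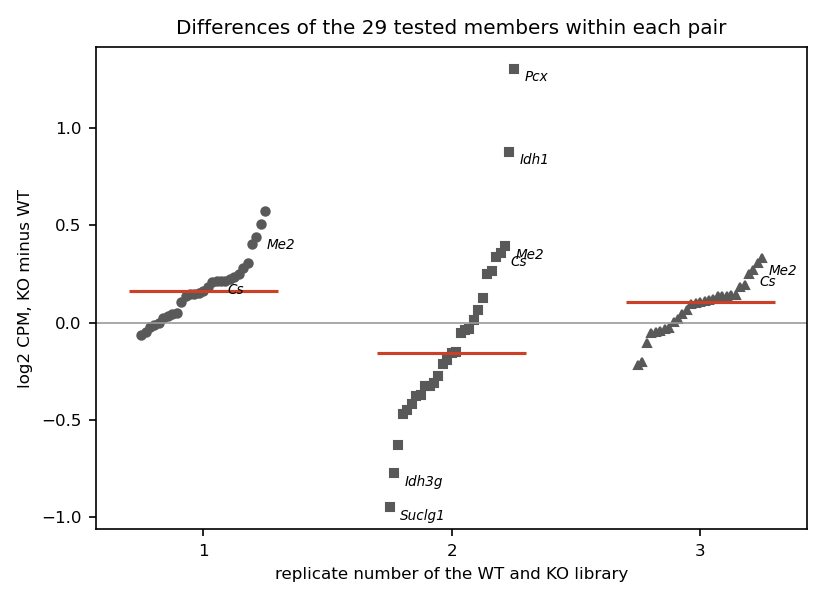
Difference in log2 CPM, KO minus WT, for the 29 tested members within each pair of libraries of the same replicate number, sorted by size, with the median as a red line. The medians are 0.16, -0.15 and 0.11 in pairs 1, 2 and 3; Pcx and Idh1 stand at the top and Suclg1 and Idh3g at the bottom of pair 2.

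When pairs 1 and 3 alone were compared, blocked on replicate number, 25 of the 29 members were higher in KO (86.2%, against 48.5% of all genes) by small amounts. The median log2 fold change was 0.11 against -0.010 for all genes, and the members' standard errors were 0.093 to 0.22. The exceptions were Pdhb, Idh1, Pck2 and Acly, of which Pck2 was lowest (-0.096). In this fit 0 members passed the adjusted threshold, against 0.862% of all genes, and 6 (20.7%) had an unadjusted p under 0.05, against 13.2% of all genes. These 6 were Me2, Sucla2, Idh3a, Mdh2, Got2 and Cs. The same comparison without KO replicate 2, all other libraries kept and no block, had 24 of 29 members higher.

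Pyruvate crosses the inner mitochondrial membrane through a carrier built of the products of Mpc1 and Mpc2. Mpc1 (chromosome 17, 8282904 to 8297661) was at 63.4, 34.7 and 20.9 CPM in the WT libraries and at 68.2, 27.7 and 22.6 CPM in the KO libraries, here and below in the order of replicates 1 to 3. Mpc2 (chromosome 1, 165460637 to 165481214) was at 166, 79.2 and 44.8 CPM in WT and at 166, 83.0 and 48.6 CPM in KO. The highest library exceeded the lowest 3.26-fold for Mpc1 and 3.72-fold for Mpc2. Between genotypes the log2 fold changes were -0.0068 (SE 0.54) for Mpc1 and 0.035 (SE 0.58) for Mpc2. A pseudogene of the first, Mpc1-ps, was itself listed at 172 to 829 counts per library, and how reads shared by the pair were assigned was not given in the sources used here.

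The pyruvate dehydrogenase complex joins E1 (Pdha1, Pdhb), E2 (Dlat) and E3 (Dld) with the E3-binding protein (Pdhx). Of the 5 genes 3 were higher and 2 lower in KO, with log2 fold changes of -0.11 to 0.15. Dlat, the acetyl-transferring core, had the largest fold change of the 5 and was at 135, 114 and 195 CPM in WT and at 149, 137 and 209 CPM in KO. Its log2 fold change was 0.15 with an SE of 0.31. Each KO library exceeded the WT library of its number by 0.097 to 0.27 in log2 CPM, but the groups overlapped. Pdha1, on the X chromosome, ranged over 111 to 168 CPM in WT and over 120 to 182 CPM in KO. Per kilobase, Pdhb stood at 230 ± 47.1 CPM per kb in WT and Pdha1, its partner in E1, at 47.0 ± 10.5. Part of that gap comes from the transcript lengths used, 1513 nt for Pdhb and 2848 nt for Pdha1. Before division by length they were at 347 ± 71.2 and 134 ± 29.9 CPM in WT.

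Citrate synthase, the product of Cs (chromosome 10, 128337734 to 128362479), condenses acetyl-CoA with oxaloacetate. Cs was at 271, 304 and 372 CPM in WT and at 314, 389 and 442 CPM in KO. Within each pair the KO library was higher, by 0.21, 0.36 and 0.25 in log2 CPM, while the ranges of the groups overlapped. The log2 fold change was 0.27 (SE 0.28, edgeR adjusted p = 1.00) over 6 libraries and 0.23 (SE 0.10) in pairs 1 and 3.

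The NAD-dependent isocitrate dehydrogenase of the cycle is built of 3 kinds of subunit. Its gamma subunit gene Idh3g, also on the X chromosome, gave the lowest log2 fold change of all members (-0.20, SE 0.29). It was at 474, 577 and 472 CPM in WT and at 526, 337 and 462 CPM in KO, so that the low value was that of KO replicate 2, and the log2 fold change in pairs 1 and 3 was 0.057. Idh3a, the catalytic alpha subunit, was at 519, 341 and 323 CPM in WT and at 612, 298 and 407 CPM in KO. It was higher in pairs 1 and 3 (log2 fold change 0.28, SE 0.099) and lower in pair 2. Idh3b ran from 128 to 181 CPM in WT and from 132 to 218 CPM in KO. Its annotated span overlaps that of Nop56 on the other strand, and Nop56 had 57226 counts in all against 15843 for Idh3b. Fh1 and Mdh1 overlap less abundant opposite-strand genes (Kmo and Wdpcp), and whether counting used the strand was not given in the sources used here.

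The NADP-dependent isocitrate dehydrogenases differed in how they behaved in KO replicate 2. Idh1 (chromosome 1, 65158616 to 65186500) was at 56.9, 59.2 and 65.1 CPM in WT and at 55.1, 109 and 67.1 CPM in KO. A single library, KO replicate 2, lay above all others, and without it the log2 fold change went from 0.35 (SE 0.32) to 0.015. Idh2, the matrix form, was at 301, 369 and 326 CPM in WT and at 349, 276 and 326 CPM in KO, lowest in the same library.

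Oxoglutarate dehydrogenase (Ogdh, with Dlst as its E2 and the shared E3 Dld) makes succinyl-CoA, and succinyl-CoA ligase splits it to succinate. Ogdh ran from 262 to 587 CPM in WT and from 297 to 568 CPM in KO, a log2 fold change of 0.095 with an SE of 0.40. Dlst stayed between 160 and 207 CPM in all 6 libraries. Suclg1 was at 443, 366 and 249 CPM in WT and at 514, 190 and 275 CPM in KO, the largest pair 2 deficit of any member (-0.95 in log2 CPM).

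Succinyl-CoA ligase pairs its alpha subunit with an ADP-forming beta subunit (Sucla2) or a GDP-forming one (Suclg2). Sucla2 (chromosome 14, 73525319 to 73596142) was at 140, 129 and 171 CPM in WT and at 209, 124 and 188 CPM in KO. Replicates 1 and 3 of KO were the highest of the 6 libraries and KO replicate 2 was the lowest. The log2 fold change was 0.24 (SE 0.29, edgeR adjusted p = 1.00) over 6 libraries, 0.083 without KO replicate 1, 0.43 without KO replicate 2 and 0.35 (SE 0.12) in pairs 1 and 3. Suclg2 was at 154, 187 and 240 CPM in WT and at 204, 135 and 231 CPM in KO, a log2 fold change of -0.027 with an SE of 0.31.

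Fumarase and the malate dehydrogenases close the cycle. Fh1, fumarase, ran from 142 to 330 CPM in WT and from 159 to 342 CPM in KO, with its highest values in the libraries numbered 1. Mdh2 was at 902, 706 and 722 CPM in WT and at 1117, 636 and 825 CPM in KO, higher in pairs 1 and 3 and lower in pair 2. Its log2 fold change was 0.15 with an SE of 0.32. Mdh1, the cytosolic partner in the malate-aspartate shuttle, was at 576, 423 and 378 CPM in WT and at 638, 364 and 384 CPM in KO. It had a log2 fold change of 0.0095 (SE 0.34), and that sign turned with upper-quartile scaling (-0.015).

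Me2 (chromosome 18, 73770040 to 73815392), which yields pyruvate and NADH from malate, differed between genotypes by a similar amount in all 3 pairs. Its level was 257, 175 and 262 CPM in WT and 348, 229 and 325 CPM in KO. Within pairs 1, 2 and 3 KO was higher by 0.44, 0.39 and 0.31 in log2 CPM, yet KO replicate 2 lay below WT replicates 1 and 3. The log2 fold change was 0.38 (1.30-fold, SE 0.30, edgeR adjusted p = 1.00) over 6 libraries and 0.37 (SE 0.10, edgeR adjusted p = 0.11) in pairs 1 and 3. Over the alternatives the adjusted p ran from 0.11 to 1.00. In no alternative did it pass the threshold or change sign.

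Pyruvate carboxylase refills oxaloacetate. Pcx (chromosome 19, 4510472 to 4621752) had the largest fold change and the smallest p of the members, at 13.9, 14.2 and 21.3 CPM in WT and 15.6, 35.2 and 23.4 CPM in KO. The log2 fold change was 0.59 with an SE of 0.39 and an edgeR adjusted p = 1.00. KO replicate 2 was the highest library by far, and without it the log2 fold change was 0.24. The gene Lrfn4 lies within the annotated span of Pcx on the other strand, with 740 counts in all against 1946 for Pcx.

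Pck2 (chromosome 14, 55540266 to 55550017) makes phosphoenolpyruvate from oxaloacetate in the matrix and is known as a target of ATF4, the transcription factor of the integrated stress response. It was at 108, 142 and 153 CPM in WT and at 110, 113 and 131 CPM in KO. The groups overlapped, KO was lower in 2 of 3 pairs, and the log2 fold change was -0.18 (SE 0.26, edgeR adjusted p = 1.00), below 0 in every alternative run. Promoters of 29 members were found by symbol in RefSeq's table (build GRCm38.p6; Idh3a and Me2 were not matched), and the 250 bases before each start were searched on both strands. The C/EBP-ATF response element TGATGNAA, to which ATF4 binds with partners, matched in 3 members (Pck2, Got1 and Me3) and in 3.91% of all genes. The cAMP response element TGACGTCA matched in Mdh2 and Ogdh (1.77% of all genes), the E-box CACGTG in Ogdh, Pcx and Slc25a1 (6.86%) and the GATA motif AGATAA in Dld (11.4%). The promoters of Pck2 and Got1, the expressed members with the first element, are shown because they let its place be compared, 5′ to 3′ on the gene's strand, with the match in capitals. In both it lies on the opposite strand. The match starts 103 bases before the start of Pck2 (chr14:55540016-55540265, plus strand) and 102 bases before that of Got1 (chr19:43524606-43524855, minus strand).
Pck2: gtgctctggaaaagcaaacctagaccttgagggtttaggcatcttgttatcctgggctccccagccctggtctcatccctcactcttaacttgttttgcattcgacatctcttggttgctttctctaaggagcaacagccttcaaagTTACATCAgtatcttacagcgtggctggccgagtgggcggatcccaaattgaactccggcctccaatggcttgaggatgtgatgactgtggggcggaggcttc
Got1: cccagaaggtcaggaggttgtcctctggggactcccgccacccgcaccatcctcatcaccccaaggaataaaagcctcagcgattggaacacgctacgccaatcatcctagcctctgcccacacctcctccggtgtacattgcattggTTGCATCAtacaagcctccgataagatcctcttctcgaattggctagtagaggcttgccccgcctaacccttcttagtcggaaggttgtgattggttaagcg
The match is a description of the letters and shows no binding.

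Cytosolic acetyl-CoA comes from citrate that Slc25a1 exports from the matrix and that Acly, ATP citrate lyase, cleaves. Slc25a1 ran from 158 to 197 CPM in WT and from 157 to 211 CPM in KO, a log2 fold change of -0.055 with an SE of 0.26. Acly was at 260, 352 and 675 CPM in WT and at 268, 384 and 654 CPM in KO, a log2 fold change of 0.022 with an SE of 0.47. The highest library exceeded the lowest 2.59-fold, while KO minus WT in log2 CPM was 0.045, 0.13 and -0.044 in pairs 1 to 3.

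Glutamate enters the cycle through glutamate dehydrogenase (Glud1) or through the aspartate aminotransferases (Got1, Got2). Got2 (chromosome 8, 95864134 to 95888547) was at 105, 131 and 162 CPM in WT and at 149, 128 and 173 CPM in KO. KO was higher in pairs 1 and 3 and within 0.033 of WT in log2 CPM in pair 2 (log2 fold change 0.18, SE 0.28; 0.30, SE 0.12 in pairs 1 and 3). Got1 was at 21.5, 19.7 and 24.0 CPM in WT and at 24.8, 24.9 and 20.8 CPM in KO. Glud1 ran from 193 to 274 CPM in WT and from 185 to 255 CPM in KO, a log2 fold change of -0.11 with an SE of 0.27.

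Ratios of members within a library, which do not depend on how libraries are scaled, were compared for 7 couples of related genes by exact permutation tests. With 3 against 3 libraries the smallest two-sided p is 0.1, so no couple could pass the threshold, and the adjusted p was 0.7 or more for all 7. The ratio of Suclg2 to Sucla2, the GDP- over the ADP-forming subunit, was 0.726, 0.960 and 0.930 per kilobase in the WT libraries and 0.646, 0.720 and 0.814 in the KO libraries. KO was lower in 3 of 3 pairs, by a mean log2 difference of -0.26, and the groups overlapped (exact permutation p = 0.2). The ratio of Mdh1 to Mdh2 was 0.438, 0.411 and 0.360 in WT and 0.392, 0.393 and 0.319 in KO, also lower in 3 of 3 pairs (mean log2 difference -0.13, exact permutation p = 0.4). With single libraries left out that difference ran from -0.21 (without WT replicate 3) to -0.032 (without KO replicate 3), and that of Suclg2 to Sucla2 from -0.38 (without WT replicate 1) to -0.18 (without KO replicate 1).

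Pck2 over Pcx was the one couple whose groups did not overlap, at 6.95, 8.96 and 6.46 per kilobase in WT and 6.35, 2.88 and 5.05 in KO (mean log2 difference -0.70, exact permutation p = 0.1, the smallest possible). KO replicate 2 was the lowest library, and without it the difference was -0.38. The ratio of Idh1 to Idh2 was 0.143, 0.121 and 0.152 in WT and 0.120, 0.299 and 0.156 in KO, where KO replicate 2 stood alone (mean log2 difference 0.36, exact permutation p = 0.5, and -0.017 without that library). Got1 over Got2 was 0.252, 0.185 and 0.182 in WT and 0.205, 0.240 and 0.148 in KO (exact permutation p = 0.9). Mpc1 over Mpc2 was 0.406, 0.467 and 0.499 in WT and 0.438, 0.356 and 0.497 in KO (exact permutation p = 0.6). All 3 overlapped between the genotypes. The couple of Me1 and Me2 rests on 0 to 16 counts of Me1 and is given no ratio.

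**Figure D4:**
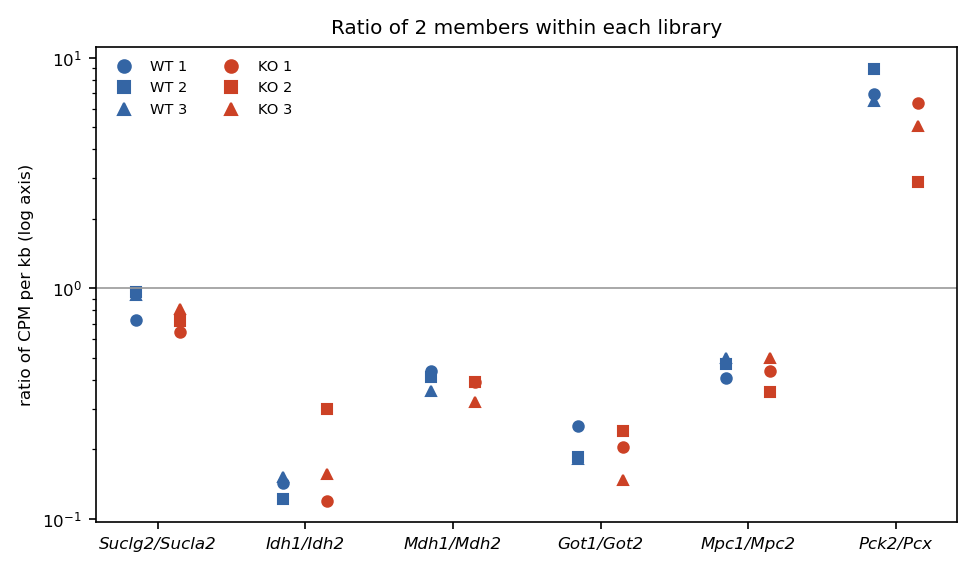
Ratio of CPM per kilobase of 2 members within each library (log axis) for 6 couples; blue points are WT and red points KO libraries, and the marker shape gives the replicate number. Only for Pck2 over Pcx do all 3 KO libraries (2.88 to 6.35) lie below all 3 WT libraries (6.46 to 8.96); for Idh1 over Idh2, KO replicate 2 stands alone at 0.299.

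Libraries of number 1 and number 3 lay apart for most members, whereas the genotypes overlapped for every tested member. The first comparison leaves out number 2 and rests on fewer libraries, so the sizes of these separations cannot be compared directly. For 25 of the 29 (86.2%) both libraries of number 1 lay above or both lay below both libraries of number 3, as they did for 76.1% of all genes. In 12 members the libraries of number 1 were above, with Mpc2, Mpc1 and Fh1 at 0.28, 0.33 and 0.46 times the number 1 mean in number 3. In 13 they were below, with Acly and Ogdh at 2.5 and 2.1 times. The median transcript length was 1568 nt for the 12 and 3367 nt for the 13, and length and the ratio of number 3 to number 1 had a Spearman rho of 0.76 across the 29 members and of 0.63 across 13443 genes. These are correlations across genes that share the same 4 libraries. Mitochondrially encoded transcripts were lowest in number 3, at 0.20% and 0.21% of counts in KO and WT. Their share was 0.57% and 0.71% in KO and WT replicate 1 and 0.66% and 0.85% in KO and WT replicate 2. Number 3 and female sex cannot be told apart, and the part of RNA quality in the pattern was not tested.

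**Figure D5:**
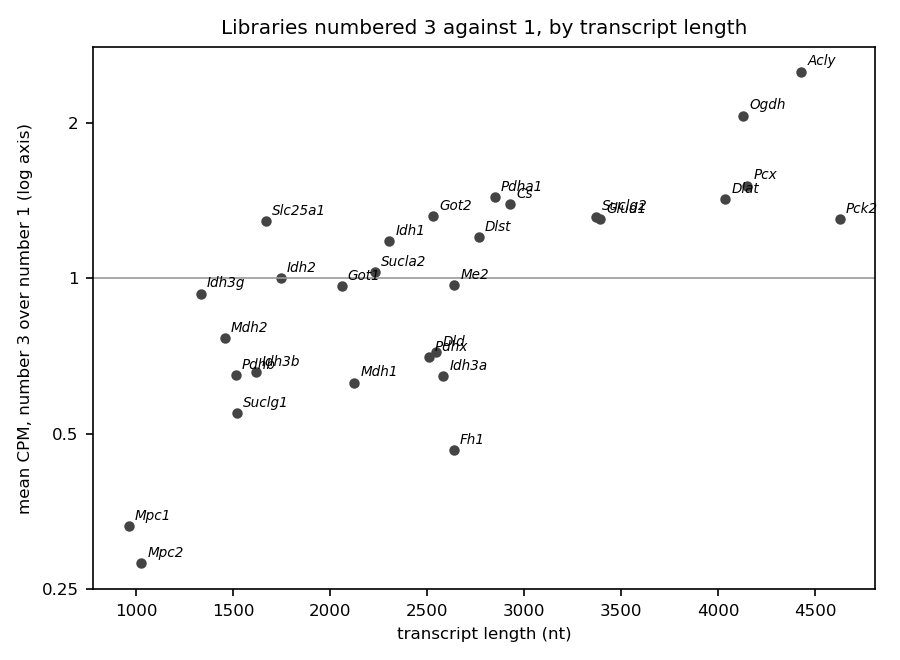
Mean CPM in the 2 libraries of number 3 over that in the 2 libraries of number 1 (vertical, log axis) against transcript length in nucleotides (horizontal) for the 29 tested members, 1 point per gene. Mpc1 and Mpc2 lie lowest at the left and Acly and Ogdh highest at the right.

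Other genes of the pathway gave a similar picture. Of 41 listed, 36 were tested, 21 higher and 15 lower in KO (median log2 fold change 0.039), and 0 passed edgeR's adjusted threshold in either direction over 6 libraries or in pairs 1 and 3. The groups did not overlap for 3 genes of the 36 (8.33%, against 4.03% of all genes), all higher in KO. These were Gls2, a glutaminase (0.896 to 3.14 CPM in WT, 3.38 to 5.32 CPM in KO; log2 fold change 1.14, SE 0.57, and 0.67, SE 0.43, in pairs 1 and 3), Slc25a10, the dicarboxylate carrier (27.7 to 31.6 and 39.9 to 44.6 CPM; log2 fold change 0.49, SE 0.25), and Slc25a12, an aspartate-glutamate carrier (65.0 to 77.7 and 81.3 to 91.2 CPM). The difference in log2 CPM for Gls2 was 0.74, 2.41 and 0.54 in pairs 1 to 3, so pair 2 gave most of it. Slc1a5, a glutamine transporter of the plasma membrane and the third smallest p of the 36, was at 180, 150 and 214 CPM in WT and at 203, 314 and 221 CPM in KO, highest in KO replicate 2.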

How the data were processed

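The authors deposited unscaled counts, 1 whole number for each Ensembl gene in each library. The submitters' processing notes name FastQC 0.11.5, STAR 2.5.3a, edgeR and, as builds, GRCm38.p3 and GRCh38.p3. How reads were counted, by strand or when shared between genes, was not given in the sources used here. Per the labels' protocols, libraries were made with SMART-Seq v4 and Nextera XT.

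Genes were filtered with filterByExpr (edgeR 4.0.16; minimum count 10, minimum total 15), which kept 13453 of 52459, and scaled by TMM. WT and KO were compared by edgeR's two-sided quasi-likelihood test (glmQLFit, glmQLFTest), adjusted over all genes by Benjamini-Hochberg with a threshold of 0.05, in R 4.3.3. Log2 CPM add a prior count of 2. Levels per kilobase use the longest protein-coding transcript of GENCODE M21's basic set. Alternatives were DESeq2 1.42.0, other scalings, no filter, the replicate number as a block, the block in pairs 1 and 3 alone, and single libraries left out. The edgeR fit of all 6 libraries was first tested on simulated data, with and without the block. The simulated libraries held no difference between replicate numbers and no library standing apart. They therefore cannot show how the fit behaves where these are present, as they are here. The other alternatives were not tested in that way. P-values measure the spread between the deposited pools.

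Departures of log2 CPM from their group's mean correlated at 0.53, 0.16 and 0.63 between libraries of number 1, 2 and 3. Each was over 0.1, so numbers were taken as pairs, with a weak basis for number 2. This pairing comes from the data, not the labels. By rule, values in all libraries are given for the 10 members of smallest p, any member called or without overlap, and the 7 couples, and for other pathway genes those called and the 3 of smallest p; Slc25a12 and further members were named after their values were seen. The floor of 3 counts equals 0.138 to 0.220 CPM. The members, lists and tests were chosen with earlier results of these data known.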

Additional observations from a re-analysis of the deposited data

How the results depend on the processing

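Members called stayed at 0 in all 12 alternatives, and members higher in KO numbered 13 to 24 when single libraries were left out, with a median log2 fold change of -0.096 without KO replicate 1 and 0.15 without KO replicate 2. Genes called over the whole table were 0 over 6 libraries, 6 with DESeq2 and 117 in pairs 1 and 3 with the replicate block. The replicate block on all 6 libraries called 0 genes (476 had an unadjusted p under 0.05) and changed no member's call. Of the 29 members, 7 kept their sign in all 12 alternatives (Cs, Sucla2, Pcx, Pck2, Me2, Got1 and Got2). For Got1 the log2 fold change in pairs 1 and 3 with the block was only 0.0021 (SE 0.21), so its sign there means little. Pcx fell to 0.15 (SE 0.22) in that fit. The size of all 7 moved by more than 1.5 times when 1 library was left out. The log2 fold change ran from 0.15 (without KO replicate 3) to 0.41 (without WT replicate 3) for Cs, 0.083 (without KO replicate 1) to 0.43 (without KO replicate 2) for Sucla2, 0.24 (without KO replicate 2) to 0.82 (without KO replicate 1) for Pcx, -0.32 (without WT replicate 1) to -0.077 (without WT replicate 3) for Pck2, 0.22 (without WT replicate 2) to 0.54 (without KO replicate 2) for Me2, 0.056 (without WT replicate 2) to 0.19 (without WT replicate 3) for Got1 and 0.030 (without WT replicate 1) to 0.35 (without WT replicate 3) for Got2. Mdh1 turned to -0.015 with upper-quartile scaling, -0.0064 without a filter and -0.015 with the replicate block. In pairs 1 and 3 with the block the sign turned for Mpc1 (0.11), Pdhx (0.032), Idh3b (0.17), Idh3g (0.057), Idh2 (0.11), Idh1 (-0.0044), Suclg1 (0.18), Suclg2 (0.17), Fh1 (0.16), Slc25a1 (0.045), Acly (-0.0021) and Glud1 (0.018). Leaving out 1 library turned the sign within these ranges: Mpc1 -0.66 to 0.50, Mpc2 -0.56 to 0.68, Pdha1 -0.097 to 0.31, Pdhb -0.37 to 0.038, Dlat -0.060 to 0.41, Dld -0.20 to 0.25, Pdhx -0.23 to 0.19, Idh3a -0.17 to 0.40, Idh3b -0.30 to 0.11, Idh2 -0.15 to 0.022, Ogdh -0.17 to 0.48, Dlst -0.042 to 0.15, Suclg1 -0.61 to 0.16, Suclg2 -0.20 to 0.17, Fh1 -0.54 to 0.21, Mdh2 -0.096 to 0.32, Mdh1 -0.30 to 0.20, Slc25a1 -0.21 to 0.018, Acly -0.41 to 0.51 and Glud1 -0.25 to 0.011. The same held for the log2 ratios of Idh1 to Idh2 (-0.017 to 0.64), Got1 to Got2 (-0.23 to 0.12) and Mpc1 to Mpc2 (-0.21 to 0.034). The cause was not tested. Members had 206 counts or more in every library except Me1 and Me3, so depth limited only these.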
